A study of Mus musculus with 2 samples.

Results

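Cells of the mouse acute myeloid leukemia line 63.3 that had been kept for 24 h in 2 µM brequinar were set against the 0 h culture of the same series. Brequinar blocks DHODH, the mitochondrial enzyme that makes orotate on the way to uridine monophosphate. The cells were chosen by the authors' deposited calls of MULTI-seq barcodes, which are lipid-anchored DNA tags that mark a culture before pooling. They number 1530 after 24 h of brequinar and 1503 at 0 h, of 12540 cells with a condition in the whole series. Except for the withdrawal culture described next, from which beta-estradiol was removed, cultures grew in medium with dialyzed serum, 0.5 µM beta-estradiol and 1% conditioned medium of Chinese hamster ovary cells that secrete stem cell factor (SCF). Beside the 24 h and 0 h cultures, values are given for the brequinar cultures at 6, 12 and 48 h, which share the same 0 h culture. Values are also given for a culture 24 h after the removal of beta-estradiol and for that series' own 0 h culture. Whether the 0 h culture of brequinar received the solvent is not stated per culture, and no untreated 24 h culture is among the conditions. Brequinar, solvent and 24 h more in culture therefore cannot be told apart. The cells are 1 established line, so nothing here speaks of a second clone or of primary leukemia.

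Each condition was 1 culture, and the pool of all cultures was loaded for 2 runs that share 1 matrix. No difference could thus be checked against replicates or tested. Spliced counts of unique molecular identifiers (UMIs, each marking 1 captured mRNA molecule) were summed over the cells of a culture and scaled to counts per 1000000 (CPM). A ratio below is CPM at 24 h over CPM at 0 h, or its inverse where a gene is given as lower, and the range in brackets after it is its exact 95% interval, which takes in the error of counting and no other. A gene at 20 CPM or more in either culture counts as measured, and at least 1.5-fold counts as higher or lower. Levels are not compared between genes.

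Pyrimidine nucleotides feed RNA, DNA and the activated sugars of glycoprotein synthesis. When DHODH is blocked, a cell can draw on uridine salvage, and dialyzed serum holds little uridine. Shortage of nucleotides is known to slow replication forks and to activate the ATR and CHK1 checkpoint, and shortage of amino acids activates the transcription factor ATF4. Immature myeloid cells carry KIT, CD34 and HOXA9 programs. On the way to neutrophils they first fill primary granules with myeloperoxidase and elastase, then secondary granules under the factor C/EBPε, and stop dividing. Brequinar is known as an agent that makes some leukemia cells take up features of mature myeloid cells.

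The 24 h culture summed to 16817052 UMIs, with a median of 11286.5 (11137 to 11426) per cell. The 0 h culture summed to 19931921 UMIs, with a median of 14849 (14527 to 15139) per cell. A floor of 3 counts stood at 0.178 CPM at 24 h and 0.151 CPM at 0 h. Cells with at least 10% mitochondrial UMIs made up 3.79% of the 24 h culture and 18.4% of the 0 h culture. Markers of myeloid progenitors summed to 1670 CPM at 24 h and 1056 CPM at 0 h, with 0 of 7 at zero, and those of promyelocytes to 9809 CPM at 24 h and 8251 CPM at 0 h, with 0 of 5 at zero. Neutrophil markers summed to 450.4 CPM at 24 h and 290.1 CPM at 0 h with Ly6g at 0 counts in both cultures. Nearly all of this sum came from S100a8, S100a9 and Lcn2, while Ngp was lower, at 7.49 CPM at 24 h and 13.9 CPM at 0 h. Monocyte markers summed to 157 CPM at 24 h and 13.8 CPM at 0 h. Lyz2, a lysozyme gene of mature phagocytes, had 1 count at 24 h and 0 at 0 h. Erythroid markers summed to 1.31 CPM at 24 h and 0.251 CPM at 0 h. The markers of the label, a myeloid progenitor line, were thus present in both cultures. Within a sum over cells, fewer cells of a kind and less RNA per cell cannot be told apart. No cell type that should lack myeloid genes is in the pool, so the level that free RNA gives could not be read from such cells.

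At 24 h of brequinar 6317 genes were measured, of which 1847 (29.2%) were higher and 873 (13.8%) lower than at 0 h by 1.5-fold or more. Higher genes made 67.9% of these calls. With the median gene set to no change they made 51.6%, with 1324 higher and 1244 lower. The median log2 ratio over measured genes (pseudocount 5 CPM) was 0.16, so the lists below are to be read against that shift. Of the measured genes 894 reached the minimum through the 24 h culture alone and 276 through the 0 h culture alone. Among the 5147 genes at the minimum in both cultures, 1118 (21.7%) were higher and 698 (13.6%) lower. At least 2-fold, 928 (14.7%) were higher and 350 (5.54%) lower. The brequinar 0 h culture set against the 0 h culture of the withdrawal series had 3 genes lower by 1.5-fold (0.0546%) and 0 higher (0%) of 5490 measured. The SD of its log2 ratios was 0.06, against 0.73 for 24 h of brequinar over 0 h. Both of those cultures are of 0 h, so the 0.06 does not give the spread between cultures taken 24 h apart.

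**Figure D1:**
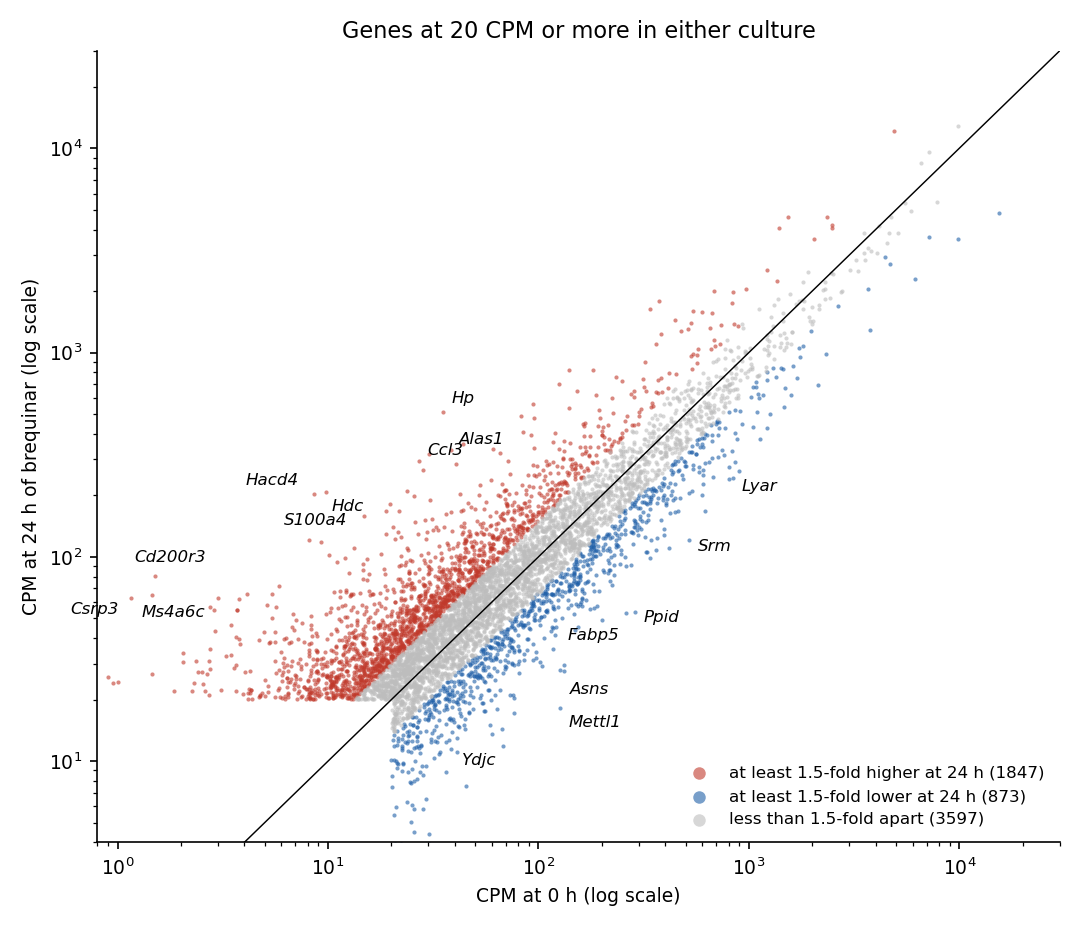
Each point is 1 of 6317 measured genes, with its CPM at 24 h of brequinar on the vertical axis and at 0 h on the horizontal axis, both on log scales, and the line marking equal levels. The 1847 red points lie at least 1.5-fold above it and the 873 blue points at least 1.5-fold below it, with Hp and Cd200r3 among the farthest above and Mettl1 and Ppid among the farthest below.

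The genes farthest above their 0 h level, ranked after 5 CPM was added to each level, included products of mature granulocytes, mast cells and macrophages. Hacd4, an enzyme of very long chain fatty acid synthesis, stood at 204 CPM at 24 h and 8.58 CPM at 0 h, 23.7-fold higher (20.4 to 27.8). Hdc, which makes histamine, stood at 208 CPM at 24 h and 9.73 CPM at 0 h, 21.4-fold higher (18.5 to 24.8). Cd200r3, an activating receptor of mast cells and basophils, stood at 80.3 CPM at 24 h and 1.51 CPM at 0 h, 53.3-fold higher (37.2 to 79.4). All of these were below the minimum of 20 CPM at 0 h. Haptoglobin (Hp), stored in secondary granules of neutrophils, stood at 514 CPM at 24 h and 35.2 CPM at 0 h, 14.6-fold higher (13.5 to 15.8). Csrp3, a LIM domain protein known from muscle, stood at 63.2 CPM at 24 h and 1.15 CPM at 0 h, 54.7-fold higher (36.3 to 86.7). The chemokine gene Ccl3 had 293 CPM at 24 h, against 27.0 CPM at 0 h, 10.9-fold higher (9.94 to 11.9). The ratio against a level of a few CPM depends on small counts: Cd200r3 was 27.7-fold higher against the other 0 h culture, and 238-fold when 5% of each sum was removed in the profile of free RNA. Under that removal Hp was 25.3-fold and Csrp3 239-fold higher.

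The other genes among the 15 farthest above included more surface receptors of myeloid cells and mast cells. S100a4, a calcium-binding protein of motile cells, had 121 CPM at 24 h, against 8.08 CPM at 0 h, 15.0-fold higher (12.8 to 17.8). Cd200r4, an activating paired receptor, had 319 CPM at 24 h, against 30.4 CPM at 0 h, 10.5-fold higher (9.65 to 11.4). Milr1, an inhibitory receptor of mast cells, had 267 CPM at 24 h, against 28.4 CPM at 0 h, 9.40-fold higher (8.61 to 10.3). Cd300lb, another receptor of myeloid cells, had 56.7 CPM at 24 h, against 2.76 CPM at 0 h, 20.6-fold higher (15.7 to 27.5). The MS4A genes Ms4a6b and Ms4a6c, membrane proteins of monocytes and macrophages, were 12.8-fold higher (10.99 to 14.9) and 20.8-fold higher (16.1 to 27.5). Alas1, the first enzyme of heme synthesis outside the red cell lineage, had 334 CPM at 24 h, against 38.4 CPM at 0 h, 8.71-fold higher (8.07 to 9.40). Fgd4, an exchange factor for CDC42, was 10.6-fold higher (9.40 to 12.0), and Pld4, a lysosomal exonuclease, 15.9-fold higher (12.7 to 20.2).

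The genes farthest below their 0 h level included enzymes and chaperones of tRNA modification, protein folding, polyamine synthesis and ribosome assembly. Mettl1, the methyltransferase that places 7-methylguanosine on tRNAs, stood at 18.1 CPM at 24 h and 127 CPM at 0 h, 7.0-fold lower (6.21 to 7.91). Ppid, a co-chaperone of HSP90, stood at 54.0 CPM at 24 h and 288 CPM at 0 h, 5.33-fold lower (4.96 to 5.72). Srm, the enzyme that makes spermidine, stood at 121 CPM at 24 h and 522 CPM at 0 h, 4.33-fold lower (4.12 to 4.54). Each kept a level well above the floor at 24 h. Fabp5, a fatty acid carrier, had 52.9 CPM at 24 h, against 260.4 CPM at 0 h, 4.92-fold lower (4.58 to 5.29). Hmga2, a chromatin protein of immature cells, had 29.4 CPM at 24 h, against 132 CPM at 0 h, 4.50-fold lower (4.09 to 4.96). The nucleolar gene Nop58 had 110.3 CPM at 24 h, against 417 CPM at 0 h, 3.78-fold lower (3.59 to 3.97). Pa2g4, a regulator of ribosome assembly and translation, had 168 CPM at 24 h, against 619 CPM at 0 h, 3.68-fold lower (3.53 to 3.83), and Lyar, a nucleolar growth regulator, was 3.47-fold lower (3.35 to 3.59). The other genes of the 15 lowest were Ydjc at 5.72-fold lower, Asns at 4.77-fold lower, Fkbp11 at 4.54-fold lower, Fam136a at 4.11-fold lower, Dctd at 4.64-fold lower, Ung at 4.46-fold lower and Cmss1 at 4.45-fold lower.

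The de novo pyrimidine pathway, whose enzyme the drug blocks, was lower in mRNA at 24 h in 5 of 8 measured genes and higher in 1, with a median log2 ratio of −0.89. The 2 genes that reached the minimum only at 0 h were lower, and 3 of the 6 at the minimum in both cultures were lower. Dhodh itself, the target of brequinar, stood at 11.7 CPM at 24 h and 25.5 CPM at 0 h, 2.19-fold lower (1.85 to 2.60). Cad, which carries the first 3 steps of the pathway, stood at 22.1 CPM at 24 h and 48.0 CPM at 0 h, 2.17-fold lower (1.92 to 2.45). Before that Cad had stood at 37.3 CPM at 6 h, below its 0 h level, and at 62.8 CPM at 12 h, above it. Umps, which turns orotate into uridine monophosphate, had 143 CPM at 24 h, against 197 CPM at 0 h, 1.38-fold lower (1.32 to 1.46). CTP synthase 1 (Ctps) was 2.66-fold lower (2.41 to 2.95) and its second form Ctps2 1.77-fold higher (1.60 to 1.96), so the paralogs lay on opposite sides of their 0 h levels. The nucleoside diphosphate kinase Nme1 was 2.20-fold lower (2.08 to 2.33). Of the salvage and uptake list 4 of 14 members were measured and none was 1.5-fold apart. Uck2, the uridine-cytidine kinase that salvages uridine, had 75.7 CPM at 24 h, against 98.9 CPM at 0 h, 1.31-fold lower (1.22 to 1.40).

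Enzymes that supply or guard deoxynucleotides were lower in 5 of 11 measured genes and higher in 1, and of the 8 at the minimum in both cultures 3 were lower and 0 higher. Dctd, the deoxycytidylate deaminase that leads to thymidylate, stood at 14.4 CPM at 24 h and 66.8 CPM at 0 h, 4.64-fold lower (4.04 to 5.34). Dut, which hydrolyses dUTP and so keeps uracil out of DNA, stood at 512 CPM at 24 h and 1089 CPM at 0 h, 2.13-fold lower (2.07 to 2.18). Ung, which cuts uracil out of DNA, had 17.2 CPM at 24 h, against 76.6 CPM at 0 h, 4.46-fold lower (3.93 to 5.07). Thymidylate synthase (Tyms) stood within 1.5-fold, at 337 CPM at 24 h and 479 CPM at 0 h, after 602 CPM at 12 h. The ribonucleotide reductase subunit Rrm2 had 267 CPM at 24 h, against 375 CPM at 0 h, 1.40-fold lower (1.35 to 1.46). Its p53-driven form Rrm2b had 11.4 CPM at 24 h, against 11.1 CPM at 0 h, after 57.5 CPM at 6 h. Samhd1, a hydrolase that breaks deoxynucleotides down and is known from myeloid cells, was the member above the fold, at 59.5 CPM at 24 h and 17.6 CPM at 0 h, 3.39-fold higher (3.0 to 3.84).

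Purine and one-carbon enzymes, which brequinar does not block, were mostly lower as well. Of 13 measured purine genes, each at the minimum in both cultures, 8 were lower and 1 higher. Adenylosuccinate lyase (Adsl) had 29.7 CPM at 24 h, against 76.1 CPM at 0 h, 2.56-fold lower (2.32 to 2.84). Pfas, an enzyme of the early purine ring, had 91.7 CPM at 24 h, against 229.5 CPM at 0 h, 2.50-fold lower (2.36 to 2.65), while Adssl1, which makes adenylosuccinate, was 2.23-fold higher (2.09 to 2.38). Of the one-carbon list 5 of 10 genes were measured and 5 were lower, 4 of 4 among those at the minimum in both. Mthfd2, the mitochondrial folate enzyme, stood at 61.4 CPM at 24 h and 138 CPM at 0 h, 2.24-fold lower (2.09 to 2.41). Shmt2, which splits serine to charge folate, stood at 76.9 CPM at 24 h and 157 CPM at 0 h, 2.05-fold lower (1.92 to 2.19).

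Genes of the amino acid response were low at 24 h, after high levels at 6 and 12 h. Of 22 measured members of the list 14 were lower and 2 higher at 24 h, with a median log2 ratio of −1.01 beside 0.16 over measured genes. Of the 20 at the minimum in both cultures 12 were lower. At 12 h, 8 of 23 were higher and 0 lower, where 13.5% of all measured genes were higher and 4.67% lower. At 6 h, 14 of 23 were higher and 0 lower, where 8.82% of all were higher and 4.97% lower. The same list thus held opposite signs in cultures 12 h apart.

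Several of these genes carry the sequence TGATGNAA, the letters of C/EBP-ATF composite elements, upstream of their start. The promoters of 3 members of the ATF4 list and of 2 tRNA synthetase genes are shown, since they differ in level at 24 h while sharing these letters. The 100 bases of each lie upstream of the annotated start, are written 5′ to 3′ on the strand of the gene, and are taken from RefSeq on build GRCm38.p6. Capitals mark a match to TGATGNAA on either strand, where N is any base. 
Asns, chr6:7693210-7693309, minus strand: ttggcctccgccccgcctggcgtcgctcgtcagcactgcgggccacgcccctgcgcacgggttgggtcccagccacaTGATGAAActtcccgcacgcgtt
Slc7a11, chr3:50443626-50443725, minus strand: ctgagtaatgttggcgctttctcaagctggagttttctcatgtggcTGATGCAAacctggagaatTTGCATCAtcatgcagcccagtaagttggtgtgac
Pck2, chr14:55540117-55540216, plus strand: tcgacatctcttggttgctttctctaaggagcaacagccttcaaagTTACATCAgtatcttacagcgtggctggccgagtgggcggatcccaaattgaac
Gars, chr6:55037901-55038000, plus strand: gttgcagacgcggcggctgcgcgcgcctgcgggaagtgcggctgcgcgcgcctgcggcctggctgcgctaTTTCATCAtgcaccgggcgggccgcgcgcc
Tars, chr15:11399659-11399758, minus strand: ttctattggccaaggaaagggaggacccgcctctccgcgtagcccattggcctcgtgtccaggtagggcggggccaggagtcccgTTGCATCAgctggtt
The match begins 23 bases before the start in Asns, 66 in Slc7a11 (the first of 2 matches), 103 in Pck2, 30 in Gars and 15 in Tars. In windows from 250 bases before to 50 after the start, 4.51% of 27025 genes and 2.75% of 5085 measured genes hold a match. It was found in 5 of 21 measured members of the ATF4 list with a window (Asns, Trib3, Slc7a11, Herpud1 and Pck2) and in 5 of 12 synthetase genes (Aars, Gars, Iars, Tars and Yars). A match describes letters in a window and is neither a bound site nor a cause of a level.

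Among the 5 measured members of the ATF4 list with the match, levels at 24 h lay on either side of 0 h. Asns, asparagine synthetase, stood at 27.7 CPM at 24 h and 132 CPM at 0 h, 4.77-fold lower (4.32 to 5.27), after 248 CPM at 6 h and 183 CPM at 12 h. Trib3, a pseudokinase that dampens ATF4, stood at 6.54 CPM at 24 h and 29.2 CPM at 0 h, 4.47-fold lower (3.64 to 5.53), after 156 CPM at 6 h and 111 CPM at 12 h. Slc7a11, the cystine carrier, had 139.7 CPM at 24 h, against 112 CPM at 0 h, 1.25-fold higher (1.18 to 1.33). Herpud1, a protein of the endoplasmic reticulum, had 88.8 CPM at 24 h, against 80.8 CPM at 0 h. Pck2, the mitochondrial phosphoenolpyruvate carboxykinase, had 104 CPM at 24 h, against 66.9 CPM at 0 h, 1.56-fold higher (1.45 to 1.68). So 2 of these 5 were lower, 1 was higher, and 2 stood within 1.5-fold. The synthetase genes with the match (Aars, Gars, Iars, Tars and Yars) were all lower, with ratios of 0.426 for Iars and 0.444 for Yars. Atf4 itself, whose protein is known to be set largely by translation, stood at 81.3 CPM at 24 h and 229 CPM at 0 h, 2.82-fold lower (2.65 to 2.99), after 383 CPM at 6 h and 286 CPM at 12 h. The related factor Atf5 was 3.57-fold lower (3.18 to 4.02). The serine synthesis enzyme Phgdh had 43.9 CPM at 24 h, against 149 CPM at 0 h, 3.38-fold lower (3.12 to 3.67), and the arginine carrier Slc7a1 17.5 CPM at 24 h, against 55.2 CPM at 0 h, 3.15-fold lower (2.77 to 3.59). Cebpb, a C/EBP factor that is also on the list, was 1.86-fold higher (1.79 to 1.92).

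The enzymes that load amino acids onto cytosolic tRNAs were lower in 15 of 20 measured genes and higher in none, 13 of 18 among those at the minimum in both cultures. The leucine enzyme Lars had 56.2 CPM at 24 h, against 184 CPM at 0 h, 3.28-fold lower (3.05 to 3.52), and Farsb, a subunit of the phenylalanine enzyme, was 2.84-fold lower (2.58 to 3.12). Gars, Tars and Aars, which hold a TGATGNAA match, had stood above 0 h at 6 h. Gars had 75.5 CPM at 24 h, against 169.8 CPM at 0 h, after 249 CPM at 6 h and 186 CPM at 12 h. Tars had 39.7 CPM at 24 h, against 89.2 CPM at 0 h, after 129 CPM at 6 h and 87.7 CPM at 12 h. Aars had 39.7 CPM at 24 h, against 74.1 CPM at 0 h, after 114 CPM at 6 h and 129.5 CPM at 12 h.

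**Figure D2:**
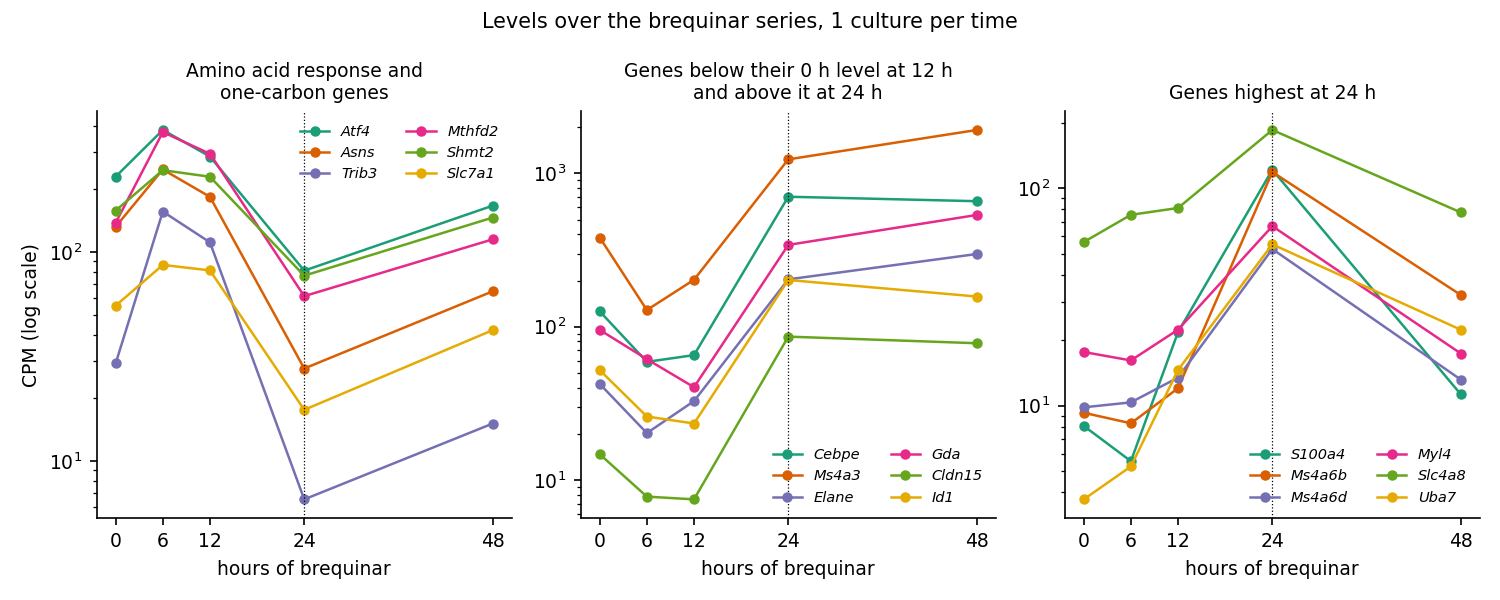
CPM (log scale) of 18 genes at 0, 6, 12, 24 and 48 h of brequinar, 1 culture per time, with a dotted line at 24 h. On the left, genes such as Asns peak at 6 h (248 CPM) and are lowest at 24 h (27.7 CPM), in the middle genes such as Cebpe lie below 0 h at 12 h (65.2 CPM) and stand at 704 CPM at 24 h, and on the right genes such as S100a4 are highest at 24 h (121 CPM).

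The machinery that builds ribosomes was lower across nearly its whole list. Of 48 measured nucleolar genes 44 were lower and 0 higher, with a median log2 ratio of −1.13. Of the 38 at the minimum in both cultures 34 were lower. Nucleolin (Ncl), which coats nascent ribosomal RNA, stood at 695 CPM at 24 h and 2120.4 CPM at 0 h, 3.05-fold lower (2.99 to 3.12). Nucleophosmin (Npm1), a nucleolar chaperone often mutated in human leukemia, stood at 1288 CPM at 24 h and 3764 CPM at 0 h, 2.92-fold lower (2.88 to 2.97). Rrp9, which binds the U3 snoRNA, had 18.1 CPM at 24 h, against 63.6 CPM at 0 h, 3.52-fold lower (3.10 to 4.00), and the assembly factor Mrto4 98.4 CPM at 24 h, against 338 CPM at 0 h, 3.43-fold lower (3.25 to 3.62). Pes1, Heatr1, Polr1c and Wdr12 were the 4 members within 1.5-fold, each below its 0 h level. The difference was seen in most cells: in cells thinned to 2500 UMIs the list gave a median of 13 UMIs per cell at 24 h (10th to 90th percentile 7 to 23), against 35 (24 to 46) at 0 h. At 24 h 91.8% of cells were below the 10th percentile of the 0 h cells.

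Heat shock chaperones and translation factors were mostly lower at 24 h, and chaperones of the endoplasmic reticulum were mostly within 1.5-fold. Of 25 measured heat shock chaperones, each at the minimum in both cultures, 20 were lower and 1 higher. Hspa8, the constitutive HSP70 of the cytosol, stood at 108 CPM at 24 h and 362 CPM at 0 h, 3.37-fold lower (3.20 to 3.55). Hsp90ab1, the constitutive HSP90, stood at 2284 CPM at 24 h and 6182 CPM at 0 h, 2.71-fold lower (2.68 to 2.74). The mitochondrial chaperonin Hspd1 had 425 CPM at 24 h, against 1216 CPM at 0 h, 2.86-fold lower (2.79 to 2.94), and Hspa4l was the member above the fold, 1.55-fold higher. Per cell the list gave a median of 16 UMIs of 2500 at 24 h and 40 at 0 h. Of 20 measured genes of protein folding in the endoplasmic reticulum 4 were higher and 2 lower, with a median log2 ratio of −0.08. Calr, the lectin chaperone calreticulin, had 2237 CPM at 24 h, against 1353 CPM at 0 h, 1.65-fold higher (1.63 to 1.68), and Edem1, which directs misfolded glycoproteins to degradation, 247 CPM at 24 h, against 107 CPM at 0 h, 2.31-fold higher (2.19 to 2.43). Of 21 translation factors 14 were lower and none higher. Eif5a, the factor that carries hypusine made from spermidine, had 979 CPM at 24 h, against 2327 CPM at 0 h, 2.38-fold lower (2.34 to 2.42). Eef2, the elongation factor that moves the ribosome, was 1.19-fold higher. Cytosolic ribosomal proteins were lower in 17 of 56, with a smaller median log2 ratio of −0.40 and Rpl5 lowest, 2.34-fold lower (1.96 to 2.82). Ribosomal protein genes have many pseudogene copies that can take a share of their reads, so their counts are uncertain. Mitochondrial ribosomal proteins were lower in 15 of 39 and higher in 2, and nuclear genes of the respiratory chain in 9 of 48 and 0.

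Myc, the growth regulator whose targets include many of these genes, stood within 1.5-fold at 157 CPM at 24 h and 219 CPM at 0 h, 1.40-fold lower (1.33 to 1.47). Its antagonists stood higher. Mxd4, which pairs with MAX in place of MYC, had 132 CPM at 24 h, against 29.4 CPM at 0 h, 4.49-fold higher (4.10 to 4.93), and Mxd1 was 3.37-fold higher (2.90 to 3.93). The MYC E-box CACGTG, searched in the same windows, was found in 10 of 44 ribosome biogenesis genes with a window (22.7%), against 12.8% of measured genes. It was found in 4 of 12 synthetase genes (33.3%), 2 of 19 heat shock chaperones (10.5%) and 2 of 21 members of the ATF4 list (9.52%). A match is again only letters in a window. Whether MYC or its antagonists have a part in these levels was not tested. Host genes of snoRNAs, whose introns yield the guides of ribosomal RNA modification, were lower in 7 of 10, 5 of 8 at the minimum in both. Gas5 had 517 CPM at 24 h, against 908 CPM at 0 h, 1.76-fold lower (1.71 to 1.80), after 2697 CPM at 6 h, and Snhg1 had 189 CPM at 24 h, against 436 CPM at 0 h, 2.31-fold lower (2.22 to 2.41), after 1954 CPM at 6 h. The nuclear long noncoding RNAs stood on the other side of 0 h: Neat1, the scaffold of paraspeckles, had 489 CPM at 24 h, against 82.2 CPM at 0 h, 5.95-fold higher (5.64 to 6.27), and Malat1 was 2.95-fold higher (2.91 to 2.99).

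Most cells at 24 h scored as G2/M, and few as S. Scores from the S phase and G2/M gene lists in cells thinned to 2500 UMIs placed 9.63% (8.15 to 11.3) of 1433 cells in the S class at 24 h, against 35.3% (32.7 to 38.0) of 1309 cells at 0 h. The G2/M class held 87.4% (85.5 to 89.0) at 24 h and 59.4% (56.7 to 62.1) at 0 h, and the G1-like class 3.0% at 24 h and 5.27% at 0 h. At 12 h the S class had held 37.8%. These classes are ranges of a score from RNA levels, not measured DNA content, and no cycling is read from them. Free RNA was not removed before scoring, and its part in the shares was not tested. Cells under 2500 UMIs, 97 at 24 h and 194 at 0 h, were left out.

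Of 52 G2/M genes at the minimum in both cultures 21 were higher and none lower. Of all genes at the minimum in both, 21.7% were higher and 13.6% lower. In the whole list 13 were higher with the median gene set to no change, where 1324 of 6136 measured genes were higher. With the 24 h cells weighted to the 0 h class shares 9 of the list were higher, where 1730 of 6286 measured genes were. The classes were scored with this same list, so this weighting lowers its members by construction, and nothing is read from it. With the median gene set to no change, the list's share higher was near that of all genes. Nusap1, which bundles spindle microtubules, stood at 211 CPM at 24 h and 68.7 CPM at 0 h, 3.07-fold higher (2.89 to 3.27). Gas2l3, a linker of actin and microtubules in dividing cells, was 2.51-fold higher (2.27 to 2.78). Mki67, the Ki-67 antigen of cycling cells, stood at 226 CPM at 24 h and 119 CPM at 0 h, 1.89-fold higher (1.80 to 1.99). Cdc20, the activator of anaphase, was 1.25-fold lower and the tubulin chain Tubb4b 1.19-fold lower, so not every gene of the list stood above 0 h. S phase genes were split. Of 39 measured 6 were higher and 5 lower, with a median log2 ratio of −0.06. Pcna, the sliding clamp of DNA polymerases, had 73.9 CPM at 24 h, against 111 CPM at 0 h, 1.51-fold lower (1.41 to 1.62). Nasp, a histone chaperone, was 2.24-fold lower (2.14 to 2.35), while Brip1, a helicase of cross-link repair, was 2.56-fold higher (2.29 to 2.87) and Clspn, which links ATR to CHK1, 1.93-fold higher (1.80 to 2.07). Of 33 MCM, origin and fork genes 3 were higher and 4 lower.

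Replication checkpoint and repair genes were higher in 10 of 25 measured and lower in 1. Of the 20 at the minimum in both cultures 7 were higher. Chek2, a kinase of the DNA break response, was 2.16-fold higher (1.98 to 2.36), and Mdc1, which binds marked chromatin at breaks, 1.79-fold higher (1.55 to 2.08). H2afx, the histone that is phosphorylated at breaks, was the lower member, at 130.0 CPM at 24 h and 245 CPM at 0 h, 1.89-fold lower (1.79 to 1.99). Inhibitors of cyclin-dependent kinases stood above 0 h. Cdkn2d, an INK4 inhibitor of CDK4 and CDK6, stood at 255 CPM at 24 h and 73.6 CPM at 0 h, 3.47-fold higher (3.27 to 3.68). Cdkn1b (p27) was 2.46-fold higher (2.12 to 2.86) and Cdkn2c (p18) 2.41-fold higher (2.21 to 2.63). Cdkn1a (p21) had 48.7 CPM at 24 h, against 21.7 CPM at 0 h, 2.25-fold higher (2.00 to 2.53). Of the p53 target list 8 of 28 genes were measured, 4 higher and 1 lower. Of the 6 at the minimum in both cultures 2 were higher and 1 lower, and Fas was not among these 6. Fas, the death receptor, had 27.3 CPM at 24 h, against 2.51 CPM at 0 h, 10.9-fold higher (8.11 to 14.9). Mdm2, the p53 ubiquitin ligase, had 51.2 CPM at 24 h, against 39.3 CPM at 0 h, 1.30-fold higher (1.18 to 1.44), and Rps27l was 1.74-fold lower (1.71 to 1.78), so the list held both directions.

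**Figure D3:**
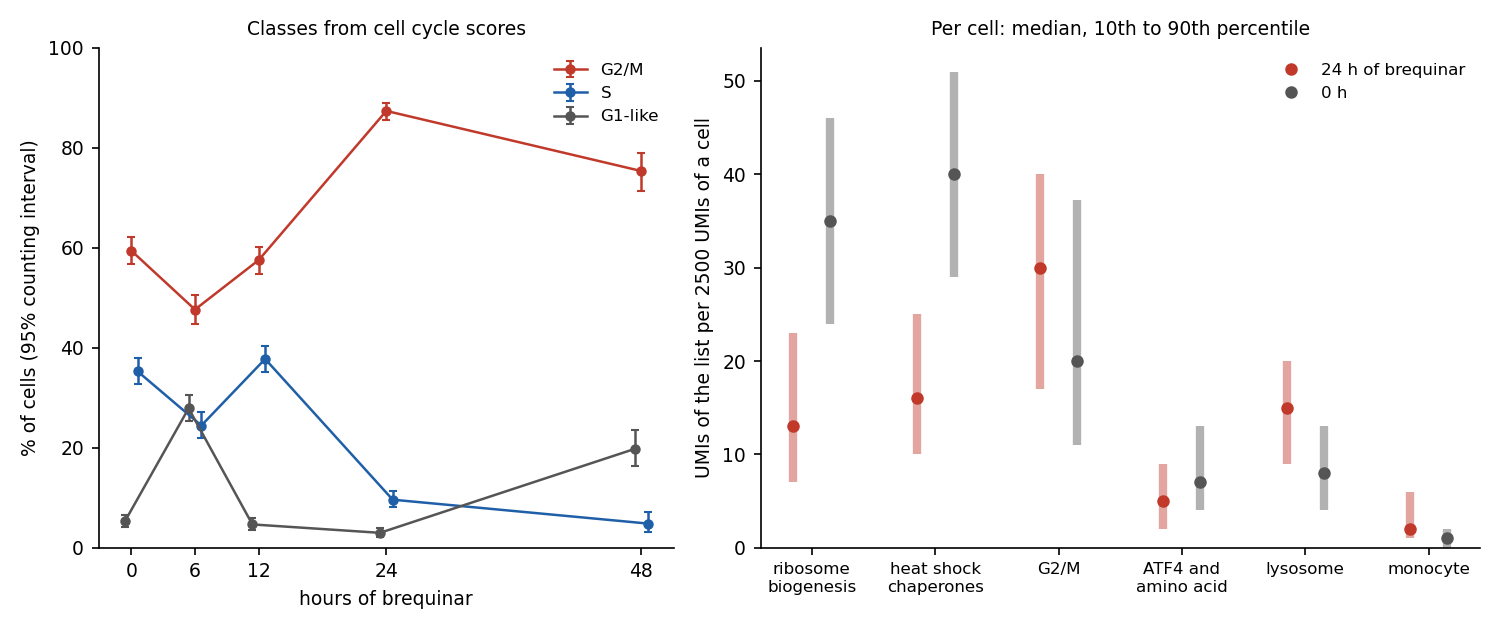
Left, the share of cells in each class from cell cycle scores at 0, 6, 12, 24 and 48 h of brequinar, in percent with exact 95% intervals for counting. Right, UMIs of 6 lists per 2500 UMIs of a cell, with the median as a point and the 10th to 90th percentile as a bar, for 24 h of brequinar (red) beside 0 h (grey): ribosome biogenesis has a median of 13 at 24 h and 35 at 0 h.

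Transcription factors of myeloid maturation were higher at 24 h in 14 of 21 measured genes and lower in none, 12 of 19 among those at the minimum in both cultures. Cebpe, needed for secondary granules, had stood below 0 h with 58.9 CPM at 6 h and 65.2 CPM at 12 h. It stood at 704 CPM at 24 h and 126 CPM at 0 h, 5.60-fold higher (5.36 to 5.85). Runx1, a regulator of blood stem cells and granulocytes, stood at 123 CPM at 24 h and 29.3 CPM at 0 h, 4.18-fold higher (3.82 to 4.60). Cebpd, a C/EBP factor of later granulocytes, stood at 169 CPM at 24 h and 43.7 CPM at 0 h, 3.87-fold higher (3.59 to 4.18). Spi1, which encodes PU.1, had 617 CPM at 24 h, against 187 CPM at 0 h, 3.29-fold higher (3.17 to 3.42). Cebpa, the C/EBP factor of granulocyte and monocyte progenitors, had 86.8 CPM at 24 h, against 58.3 CPM at 0 h, 1.49-fold higher (1.38 to 1.61), just inside the fold. Gfi1, a repressor that favours neutrophils, had 139 CPM at 24 h, against 88.7 CPM at 0 h, 1.56-fold higher (1.47 to 1.66). Irf8, the factor of the monocyte and dendritic lineages, was near the floor with 0.297 CPM at 24 h and 0.251 CPM at 0 h. Immediate early and KLF factors were higher in 11 of 15, 4 of 8 among those at the minimum in both. Egr1, a factor of macrophage differentiation, had 38.0 CPM at 24 h, against 6.52 CPM at 0 h, 5.83-fold higher (4.82 to 7.09), and Klf6, known from macrophages, 58.2 CPM at 24 h, against 12.0 CPM at 0 h, 4.85-fold higher (4.21 to 5.61).

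Primary granule genes were higher in 12 of 15 and lower in 1, 10 higher and 1 lower of 13 at the minimum in both cultures. Elane, neutrophil elastase, stood at 203 CPM at 24 h and 42.3 CPM at 0 h, 4.81-fold higher (4.46 to 5.19). Mpo, myeloperoxidase, stood at 1384 CPM at 24 h and 931 CPM at 0 h, 1.49-fold higher (1.46 to 1.52), just inside the fold. Ms4a3, a marker of granulocyte and monocyte progenitors, had 1235 CPM at 24 h, against 382 CPM at 0 h, 3.24-fold higher (3.15 to 3.32). Ctsg, cathepsin G, was lower, at 2926 CPM at 24 h and 4415 CPM at 0 h, 1.51-fold lower (1.49 to 1.53). The serine proteases of the same granules thus lay on both sides of 0 h, with Prtn3 1.64-fold higher (1.62 to 1.66).

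Of the secondary and tertiary granule list only 8 of 27 genes reached the minimum, and 7 of them were higher. Among the 7 at the minimum in both cultures 6 were higher. The neutrophil markers Ngp, Ltf and Camp lay under the minimum in both cultures. Ngp was lower, at 7.49 CPM at 24 h and 13.9 CPM at 0 h. Ltf had 1.61 CPM at 24 h and 0.853 CPM at 0 h, and Camp 2.74 CPM at 24 h and 1.35 CPM at 0 h. Beside Hp, Mmp8 (neutrophil collagenase) had 35.4 CPM at 24 h, against 2.76 CPM at 0 h, 12.8-fold higher (9.73 to 17.3). Anxa1, a brake on leukocyte adhesion, had 818 CPM at 24 h, against 181 CPM at 0 h, 4.52-fold higher (4.36 to 4.69). Lcn2, which sequesters bacterial siderophores, had 196 CPM at 24 h, against 159.9 CPM at 0 h, 1.23-fold higher (1.17 to 1.29). Some of these transcripts were concentrated in few cells. Of the UMIs of S100a8, a subunit of calprotectin, 71.6% came from the richest 2% of cells at 24 h. S100a8 had 124 CPM at 24 h, against 60.6 CPM at 0 h, 2.05-fold higher (1.91 to 2.20), and stood at a ratio of 0.909 without the 5% of cells of each culture with the most UMIs, so its direction rests on those cells. Chil3, a chitinase-like protein, had 57.2 CPM at 24 h, against 35.4 CPM at 0 h, 1.62-fold higher (1.47 to 1.78), with 73.4% of its UMIs in the richest 2% of cells. S100a13 was 2.70-fold higher (2.57 to 2.83). Wfdc17, a WAP domain protein of phagocytes, had 72.1 CPM at 24 h, against 5.87 CPM at 0 h, 12.3-fold higher (10.1 to 15.0). Stfa1, a stefin that inhibits cathepsins, had 395 CPM at 24 h, against 92.3 CPM at 0 h, 4.28-fold higher (4.07 to 4.51).

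Surface receptors of phagocytes were higher in 16 of 17 measured genes, 12 of 13 among those at the minimum in both cultures. Clec12a, an inhibitory receptor of myeloid cells, stood at 358 CPM at 24 h and 43.6 CPM at 0 h, 8.22-fold higher (7.65 to 8.83). Fcgr3, an activating receptor for IgG, stood at 535 CPM at 24 h and 140.3 CPM at 0 h, 3.81-fold higher (3.66 to 3.98). Its signalling partner Fcer1g had 2546 CPM at 24 h, against 1222 CPM at 0 h, 2.08-fold higher (2.05 to 2.12). Clec4e was the member below 0 h, 1.10-fold lower. Adhesion genes were higher in 10 of 16, 6 of 12 at the minimum in both. Itgb2, the β2 integrin chain, had 68.5 CPM at 24 h, against 12.1 CPM at 0 h, 5.64-fold higher (4.91 to 6.51). Itgam, the CD11b chain that pairs with it, had 36 counts (2.14 CPM) at 24 h and 0 counts at 0 h. With 3 counts taken as the floor at 0 h, it was at least 14.2-fold higher.

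Receptors for chemokines and growth factors followed the same direction in level. All 7 measured chemokine and chemokine receptor genes, of 29 listed, were higher, 5 of them at the minimum in both cultures and 2 only at 24 h. Cxcr2, the receptor that draws neutrophils from the marrow, had 24.4 CPM at 24 h, against 1.00 CPM at 0 h, 24.3-fold higher (15.5 to 40.2). Ccr1, a receptor for Ccl3, had 23.8 CPM at 24 h, against 2.56 CPM at 0 h, 9.30-fold higher (6.93 to 12.7). Ccr2, the receptor that draws monocytes from the marrow, had 252 CPM at 24 h, against 94.97 CPM at 0 h, 2.66-fold higher (2.52 to 2.81). Cytokine receptors were higher in 11 of 17, 4 of 9 at the minimum in both. Csf2rb, the shared chain of the receptors for GM-CSF, IL-3 and IL-5, had 286 CPM at 24 h, against 40.4 CPM at 0 h, 7.07-fold higher (6.56 to 7.63), and its mouse copy Csf2rb2 33.7 CPM at 24 h, against 2.06 CPM at 0 h, 16.4-fold higher (11.9 to 23.1). Reads of these near-identical genes can be split uncertainly between them. Csf3r, the receptor for G-CSF, was 3.07-fold higher (2.63 to 3.58).

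Monocyte and macrophage genes were higher in all 13 measured of 37 listed, yet 9 of them reached the minimum only at 24 h, and 4 in both cultures. Cd14, which binds lipopolysaccharide, had 46.6 CPM at 24 h, against 3.46 CPM at 0 h, 13.4-fold higher (10.5 to 17.5). F13a1, a clotting factor subunit of monocytes, had 111 CPM at 24 h, against 23.6 CPM at 0 h, 4.69-fold higher (4.24 to 5.20). Adgre1, which encodes F4/80, had 28.5 CPM at 24 h, against 3.56 CPM at 0 h, 8.01-fold higher (6.23 to 10.4). Per cell the list stayed low, at a median of 2 UMIs of 2500 at 24 h and 1 at 0 h. Lysosomal genes were higher in 16 of 22 and lower in none, 13 of 19 at the minimum in both. Grn, progranulin, had 141 CPM at 24 h, against 32.5 CPM at 0 h, 4.33-fold higher (3.97 to 4.73), and Ctsb, cathepsin B, 145 CPM at 24 h, against 52.7 CPM at 0 h, 2.76-fold higher (2.56 to 2.97). Per cell the lysosomal list gave a median of 15 UMIs at 24 h and 8 at 0 h, and 60.2% of cells at 24 h lay above the 90th percentile of the 0 h cells. Actin genes were higher in 13 of 29, 10 of 26 at the minimum in both. Gelsolin (Gsn), which severs filaments, was 8.83-fold higher (8.02 to 9.74), and Myo1f, a myosin of neutrophils, 5.27-fold higher (4.66 to 5.97).

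**Figure D4:**
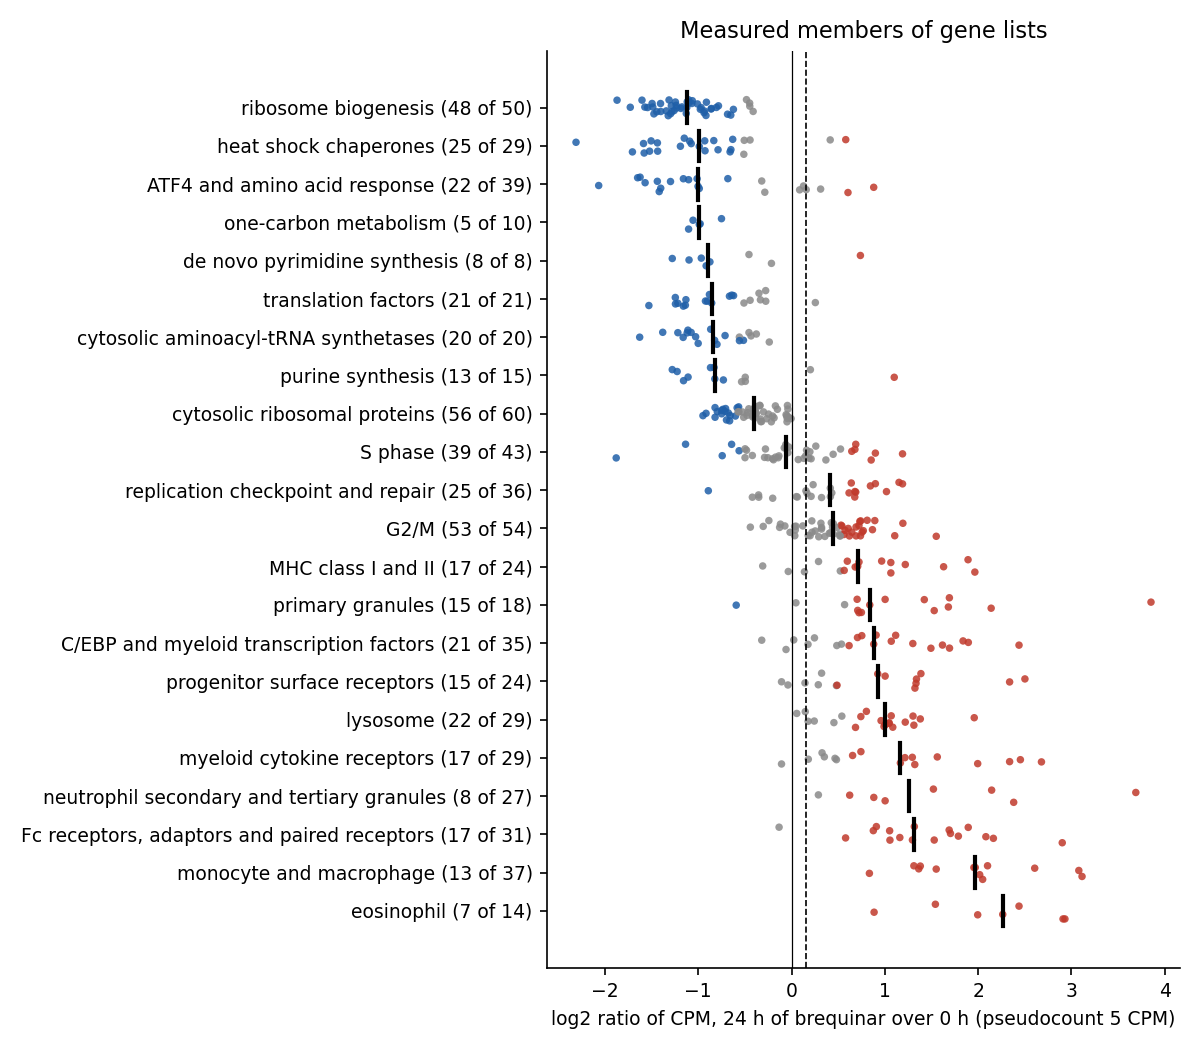
Each point is a measured member of a gene list, placed at its log2 ratio of CPM at 24 h of brequinar over 0 h (red, at least 1.5-fold higher; blue, at least 1.5-fold lower; grey, neither), with black bars at the medians, a dashed line at the median of all measured genes (0.16) and the number measured of those listed in brackets. Medians run from −1.13 for ribosome biogenesis to 2.26 for the eosinophil list. They include members at the minimum in 1 culture only, which widens them: 4 of 7 eosinophil members only at 24 h, and 10 of 48 ribosome biogenesis members only at 0 h.

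Genes of eosinophils and mast cells were among those far above 0 h, though counts for some of their specific genes were 0. All 7 measured of 14 eosinophil genes were higher, 3 of them at the minimum in both cultures, while Ear1 and Ear2 had 0 counts in both. Ear1 and Ear2 are close copies of each other, and genes with close copies can lose reads in counting: Gapdh, which has many pseudogenes, lay under the minimum in both cultures. The 0 counts therefore do not show that Ear1 and Ear2 were not expressed. Siglecf, a sialic acid receptor of eosinophils, had 181 CPM at 24 h, against 19.7 CPM at 0 h, 9.17-fold higher (8.26 to 10.2). Prg2, eosinophil major basic protein, had 2002 CPM at 24 h, against 684 CPM at 0 h, 2.93-fold higher (2.87 to 2.99). Of its UMIs 63.8% lay in the richest 2% of cells, and with each cell weighing the same Prg2 was 1.64-fold higher. Il5ra, the receptor chain for IL-5, was 8.07-fold higher (6.30 to 10.5), and Gata1, a factor of eosinophils, mast cells, platelets and red cells, 9.79-fold higher (7.71 to 12.6). Of the mast cell and basophil list 8 of 10 measured genes were higher, 4 of 6 at the minimum in both. Cpa3, carboxypeptidase A of mast cells, had 1635 CPM at 24 h, against 337 CPM at 0 h, 4.85-fold higher (4.72 to 4.98). Mcpt8, the basophil protease, had 39.9 CPM at 24 h, against 55.7 CPM at 0 h, 1.40-fold lower (1.27 to 1.54), and Fcer1a, the IgE-binding chain, had 0 counts in both cultures. Megakaryocyte genes were higher in 5 of 5 measured, 2 of them at the minimum in both, with Itga2b, the platelet integrin, 4.44-fold higher (3.53 to 5.63). Tfrc, the transferrin receptor of growing and erythroid cells, was lower, at 45.4 CPM at 24 h and 155 CPM at 0 h, 3.41-fold lower (3.15 to 3.69). Ebf1, a factor of early B cells, had 296 CPM at 24 h, against 461 CPM at 0 h, 1.56-fold lower (1.51 to 1.61), and Cd79a, a chain of the B cell receptor, 32.7 CPM at 24 h, against 3.26 CPM at 0 h, 10.0-fold higher (7.74 to 13.2). As sums over marker lists, eosinophil markers came to 3370 CPM at 24 h and 1421 CPM at 0 h with 2 of 5 at 0 counts, mast cell and basophil markers to 1685 CPM at 24 h and 395 CPM at 0 h with 1 of 4 at 0 counts. Megakaryocyte markers came to 123 CPM at 24 h and 31.4 CPM at 0 h with 0 of 3 at 0 counts. B lineage markers came to 33.2 CPM at 24 h and 3.46 CPM at 0 h, nearly all of it Cd79a, with Ms4a1 at 0 counts. T and NK markers came to 52.6 CPM at 24 h and 16.3 CPM at 0 h, with Cd3e at 0 counts at 24 h and 1 count at 0 h. Most of this sum was Nkg7, at 50.7 CPM at 24 h and 12.2 CPM at 0 h. Trac was lower, at 1.31 CPM at 24 h and 3.76 CPM at 0 h, and Cd3d stayed under 1 CPM. What part cells of other lineages have in the myeloid lists was not tested.

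Most measured genes of immature cells stood above their 0 h level at 24 h. Of 20 measured progenitor transcription factors 12 were higher and 2 lower, 8 higher and 1 lower of 15 at the minimum in both. Of progenitor surface receptors 9 of 15 were higher and none lower, 7 higher of 13 at the minimum in both. Hoxa9, the homeobox factor of many leukemias, stood within 1.5-fold at 61.7 CPM at 24 h and 75.9 CPM at 0 h. Its cofactor Meis1 stood at 64.2 CPM at 24 h and 41.6 CPM at 0 h, 1.54-fold higher (1.41 to 1.69). Kit, the SCF receptor, stood within it at 171 CPM at 24 h and 121 CPM at 0 h. Cd34, the sialomucin of progenitors, had 362 CPM at 24 h, against 141 CPM at 0 h, 2.56-fold higher (2.44 to 2.67). Flt3, a receptor of lymphoid and myeloid progenitors, had 84.0 CPM at 24 h, against 90.8 CPM at 0 h, after 189.7 CPM at 6 h. The 2 lower factors were Hmga2 and Tal1, a factor of stem and red cells, 2.51-fold lower (2.09 to 3.04). Among the higher were Mef2c, a factor of lymphoid and monocyte fate, 5.54-fold higher (4.68 to 6.59), and Ikzf2 (Helios), 5.65-fold higher. The inhibitors of differentiation Id1 and Id2 were 3.87-fold higher (3.61 to 4.16) and 6.90-fold higher (5.63 to 8.51), and Id1 had stood at 23.3 CPM at 12 h, below its 0 h level of 52.0 CPM.

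Among antigen presentation and detoxification genes more were higher than lower. The same held for all genes at the minimum in both cultures, of which 21.7% were higher and 13.6% lower. Of 15 MHC genes at the minimum in both cultures 10 were higher and none lower. H2-K1, a classical class I chain, had 1749 CPM at 24 h, against 834 CPM at 0 h, 2.10-fold higher (2.06 to 2.14), and Tapbp, which loads peptides onto class I, 85.5 CPM at 24 h, against 24.2 CPM at 0 h, 3.53-fold higher (3.18 to 3.92). The H2 genes are close copies of each other, so counts may be split uncertainly among them. Ifitm1, an antiviral membrane protein, had 1783 CPM at 24 h, against 373 CPM at 0 h, 4.78-fold higher (4.66 to 4.90), while its neighbour Ifitm3 was 1.35-fold lower. Of 20 glutathione and peroxide defence genes at the minimum in both cultures 8 were higher and 3 lower, the share lower being near that of all genes. Nqo1, a quinone reductase, had 27.5 CPM at 24 h, against 4.26 CPM at 0 h, 6.44-fold higher (5.10 to 8.22), and Mgst2, a microsomal glutathione transferase, 336 CPM at 24 h, against 60.7 CPM at 0 h, 5.54-fold higher (5.20 to 5.89). Prdx3, the peroxiredoxin of mitochondria, was 1.99-fold lower (1.90 to 2.09). Mitochondrially encoded mRNAs were unequal: mt-Cytb had 4823 CPM at 24 h, against 15402 CPM at 0 h, 3.19-fold lower (3.17 to 3.22), and mt-Co1 1974 CPM at 24 h, against 837 CPM at 0 h, 2.36-fold higher (2.32 to 2.40). The share of cells with high mitochondrial UMIs moves with these values. Without cells at 10% or more mitochondrial UMIs, the median mitochondrial share of a cell was 2.14% at 24 h and 3.01% at 0 h. What part such cells have in the levels of mt-Cytb and mt-Co1 was not tested. Among survival genes Bcl2 was 1.97-fold higher (1.81 to 2.13) and Bcl2l1 1.89-fold higher (1.70 to 2.10), while Mcl1 was 1.01-fold lower.

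In its series the 24 h culture held values that the times on either side did not. Of the genes higher at 24 h than at 0 h 36.4% were also higher at 12 h and 71.0% at 48 h, and of those lower 21.5% were lower at 12 h and 74.2% at 48 h. All of these ratios share the 0 h culture. At 48 h 25.7% of measured genes were higher and 17.3% lower, and at 24 h over 12 h 17.2% were higher and 11.9% lower. By a rule of at least 2-fold above 0, 12 and 48 h, 19 genes were highest at 24 h. S100a4 led them, with 21.8 CPM at 12 h, 121 CPM at 24 h and 11.3 CPM at 48 h. Ms4a6b had 12.0 CPM at 12 h, 119 CPM at 24 h and 32.3 CPM at 48 h. Uba7, the activating enzyme of the ubiquitin-like ISG15, had 14.6 CPM at 12 h, 55.2 CPM at 24 h and 22.3 CPM at 48 h. Ms4a6d, Myl4, Slc4a8, Pbx4 and Ift22 were named by the same rule, at 5.34-fold higher, 3.79-fold higher, 3.27-fold higher, 2.84-fold higher and 2.98-fold higher than at 0 h. Beside membrane proteins of the MS4A family these thus included a myosin light chain (Myl4) and a bicarbonate carrier (Slc4a8).

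At least 1.5-fold below 0, 12 and 48 h were 58 genes, 5 of them on the ATF4 list. Asns had 64.7 CPM at 48 h and Atf4 166 CPM, both above their 24 h levels. Mif, a cytokine and tautomerase, had 200.3 CPM at 24 h, against 598 CPM at 0 h, 2.99-fold lower (2.87 to 3.10), and Ifrd1, a stress-responsive regulator, 55.5 CPM at 24 h, against 176 CPM at 0 h, 3.18-fold lower (2.95 to 3.42). The others named by this rule were Slc7a1, Srm, Ydjc and Shmt2. From 12 to 24 h, 10 genes lay at least 1.5-fold above 0 h at the first time and 1.5-fold below it at the second. Beside Trib3, Mthfd2 and Aars these included Cox6a2, a cytochrome c oxidase subunit, with 81.2 CPM at 0 h, 261 CPM at 12 h and 30.9 CPM at 24 h. Cyb5r1, a cytochrome b5 reductase, had 38.1 CPM at 0 h, 58.2 CPM at 12 h and 16.2 CPM at 24 h. In the reverse order, 14 genes lay below 0 h at 12 h and above it at 24 h, among them Cebpe, Ms4a3 and Id1. Gda, guanine deaminase, had 95.2 CPM at 0 h, 40.2 CPM at 12 h and 341 CPM at 24 h. Cldn15, a claudin of tight junctions, had 14.7 CPM at 0 h, 7.46 CPM at 12 h and 86.0 CPM at 24 h.

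Set beside the culture 24 h after beta-estradiol was removed, brequinar gave more higher genes. Withdrawal had 9.46% of measured genes higher and 11.9% lower than its own 0 h culture. Of its 538 higher genes 401 (74.5%) were also higher with brequinar, where 29.2% of all genes measured with brequinar were higher. These were 21.7% of the 1847 of brequinar, some of which were not measured in withdrawal. Of its 675 lower genes 250 (37.0%) were lower with brequinar, where 13.8% of all were lower. These were 28.6% of the 873 of brequinar. Across 5621 genes measured in both, Pearson's r of the log2 ratios was 0.55 and Spearman's rho 0.55. Genes are not independent of each other, and all cultures share the pool and its runs. In the direct ratio of brequinar over withdrawal at 24 h 29.6% of genes were higher and 8.05% lower. There were 94 genes higher with brequinar and lower with withdrawal, and 1 gene the other way round. All of these counts rest on CPM, where the median log2 ratio over measured genes was 0.16 with brequinar. What part the scaling has in the counts of this comparison was not tested.

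Progenitor genes lay lower after withdrawal in several cases, though not in all. Of progenitor transcription factors 12 were higher and 2 lower of 20 measured with brequinar, and 3 higher and 6 lower of 17 after withdrawal. Of progenitor surface receptors 9 were higher and 0 lower of 15 with brequinar, and 4 higher and 5 lower of 12 after withdrawal. Cd34 stood at 362 CPM with brequinar, against 20.0 CPM at 24 h of withdrawal and 138 CPM at its 0 h. Meis1 stood at 64.2 CPM with brequinar, against 7.82 CPM at 24 h of withdrawal and 42.1 CPM at its 0 h. Ebf1 stood at 296 CPM with brequinar, against 12.6 CPM at 24 h of withdrawal and 426 CPM at its 0 h. After withdrawal all 3 were far below their 0 h level, while with brequinar Cd34 and Meis1 were above it and Ebf1 was 1.56-fold lower. Hoxa9 lay the other way round, at 61.7 CPM with brequinar, against 112 CPM at 24 h of withdrawal and 78.4 CPM at its 0 h. Flt3 had 84.0 CPM with brequinar, against 5.70 CPM at 24 h of withdrawal and 89.0 CPM at its 0 h. Nrgn, neurogranin, had 1375 CPM with brequinar, against 106 CPM at 24 h of withdrawal and 839 CPM at its 0 h, and Ccr2 252 CPM, against 17.4 CPM at 24 h of withdrawal and 92.5 CPM at its 0 h. S100a4 had 121 CPM with brequinar, against 5.90 CPM at 24 h of withdrawal and 8.00 CPM at its 0 h, and Cd200r4 319 CPM, against 27.0 CPM at 24 h of withdrawal and 31.6 CPM at its 0 h. Cebpe was close in both, at 704 CPM with brequinar, against 755 CPM at 24 h of withdrawal and 116 CPM at its 0 h.

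Granule genes of eosinophils and growth genes differed the other way. Prg2 stood at 2002 CPM with brequinar, against 9559 CPM at 24 h of withdrawal and 631 CPM at its 0 h. Prg3, a second major basic protein, stood at 1365 CPM with brequinar, against 6973 CPM at 24 h of withdrawal and 580.2 CPM at its 0 h. Chil3 stood at 57.2 CPM with brequinar, against 418 CPM at 24 h of withdrawal and 28.1 CPM at its 0 h. All of these were above 0 h in both treatments. Tfrc had 45.4 CPM with brequinar, against 228 CPM at 24 h of withdrawal and 153 CPM at its 0 h. Mettl1 had 18.1 CPM with brequinar, against 116 CPM at 24 h of withdrawal and 130.1 CPM at its 0 h, and Fkbp11, a folding enzyme of secretory cells, 27.9 CPM, against 165 CPM at 24 h of withdrawal and 128 CPM at its 0 h. Asns had 27.7 CPM with brequinar, against 124 CPM at 24 h of withdrawal and 137 CPM at its 0 h, and Atf4 81.3 CPM, against 264 CPM at 24 h of withdrawal and 236 CPM at its 0 h. By lists, cholesterol synthesis was higher in 1 of 17 genes with brequinar and in 13 of 18 after withdrawal. Synthetases were lower in 15 of 20 with brequinar and 1 of 20 after withdrawal, and ribosome biogenesis genes in 44 of 48 with brequinar and 19 of 48 after withdrawal. G2/M genes were higher in 21 of 53 with brequinar and 0 of 52 after withdrawal, where the S class held 27.8% of cells and the G2/M class 51.0%. No difference between the treatments was tested, since each was 1 culture.

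**Figure D5:**
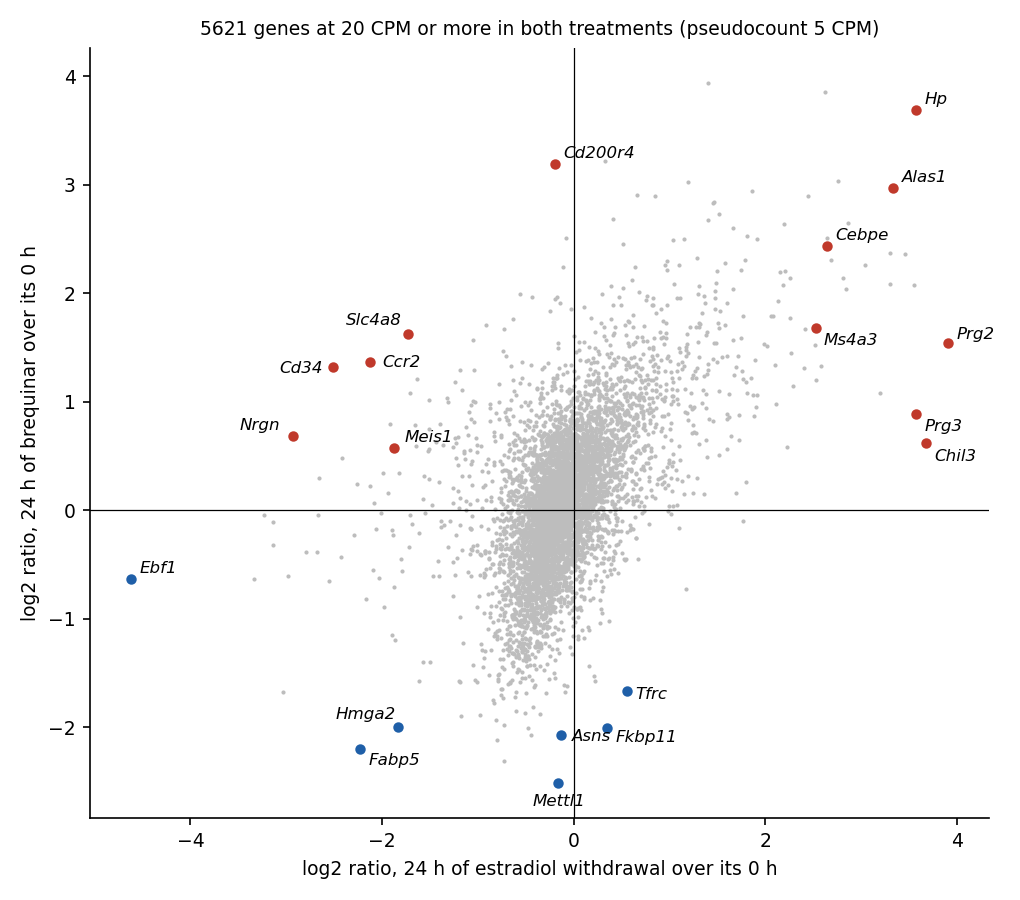
Each grey point is 1 of 5621 genes, with its log2 ratio to the own 0 h culture after 24 h of brequinar (vertical) or after 24 h of estradiol withdrawal (horizontal), and named genes in red above and blue below the 0 h level of the brequinar series. Cebpe and Hp lie high on both axes, Cd34, Ccr2 and Meis1 lie above 0 h with brequinar (362 CPM at 24 h against 141 CPM at 0 h for Cd34) and below it after withdrawal, and Mettl1, Asns and Fkbp11 lie low with brequinar and near 0 after withdrawal.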

How the data were processed

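The data are single-cell UMI counts. The authors deposited raw spliced counts per cell barcode and gene, with 2 runs of 1 pool in 1 matrix, and barcode calls for 15582 cell barcodes. Per the submitters' processing notes, the tools were kallisto 0.46, bustools 0.39.4 and also Cell Ranger. The genome build of the counts is not given in the sources used here. Cells barcoded as brequinar 24 h and 0 h were used, and barcodes called Doublet (2777, 17.8%) or Negative (265) by the authors were left out, with no other filter and no doublet caller run. Barcodes carry no mark of the run. A reference table gave symbols for 54723 of 54838 Ensembl mouse IDs, and rows with the same symbol were added up. Of all spliced UMIs 63.9% lay in cells with a condition.

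Counts were summed per culture and scaled to CPM with Python 3.11.15, numpy 2.4.6, pandas 2.3.3 and scipy 1.17.1. Intervals of a ratio are exact conditional binomial (Clopper-Pearson) and, like floors, cover counting error only. Cell cycle scores came from scanpy 1.11.5. Lists describe members by counts at 1.5-fold and by the median log2 ratio. On simulated counts for 5478 genes, 100 genes made 2-fold higher were called higher and 99 of those made 2-fold lower were called lower, with 0 unchanged genes called. The members and the 57 gene lists were chosen with earlier results of these data known.

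Genes named are the 15 farthest above and the 15 farthest below 0 h at 50 CPM or more (ranked after adding 5 CPM to each level), the 8 with the clearest peak and the 8 with the clearest low point at 24 h, 5 switches each way between 12 and 24 h, 6 differences each way from withdrawal, 2 to 4 members per list and 31 genes always named. The rule for switches set no CPM minimum, and 50 CPM over 0, 12 and 24 h was used. Some list members named lie outside the largest ratios, to show a member with no difference or the other direction, and these were chosen after their values were seen. Lists with 1 or no measured member past the fold are given by counts or not at all, and some list members are not reported here.

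Alternatives were other scalings (median ratio set to 0, each cell weighing the same, no mitochondrial genes), another 0 h culture, cells left out by depth, mitochondrial share or granule content, 5% free RNA removed in the profile of barcodes of 2 to 100 UMIs, weighting of the 24 h cells to the 0 h class shares, other minimums, folds and pseudocounts, and thinning to 5000 UMIs.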

Additional observations from a re-analysis of the deposited data

Results flagged for a closer look

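For 7 named genes the brequinar and the withdrawal cultures at 24 h lay on opposite sides of their own 0 h culture, each by at least 1.5-fold. With brequinar Ms4a6d was 5.34-fold higher, Myl4 3.79-fold, Slc4a8 3.27-fold, Ccr2 2.66-fold, Cd34 2.56-fold, Nrgn 1.61-fold and Meis1 1.54-fold higher, and all were lower after withdrawal. Each treatment was 1 culture, so the difference between the treatments was not tested.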

How the results depend on the processing

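No paired analysis was possible because each condition was 1 culture, and for the same reason no culture could be left out. In the scalings and cell choices tried, the counts of genes higher and lower stayed within 1.5 times. A minimum of 50 CPM gave 1007 genes higher, a minimum of 5 CPM 3016, and a 2-fold threshold 928 higher and 350 lower. The G2/M list had 13 members higher with the median ratio set to 0, 9 with 24 h cells weighted to the 0 h class shares and 3 at 2-fold. The class weights rest on scores of this same list. At 50 CPM the monocyte list had 7 members higher, and at 2-fold 13 heat shock chaperones were lower. The median of the erythroid list, on 3 measured genes −0.64, was 0.61 at a minimum of 5 CPM. The cause was not tested.

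At 0 h the S class held 32.4% of cells at a score threshold of 0.05 and 40.9% when thinned to 5000 UMIs, the G2/M class 56.2% and 56.0%, and the G1-like class 11.4% and 3.03%. The G1-like class at 24 h held 4.82% at the threshold of 0.05. Without cells at 10% or more mitochondrial UMIs the 0 h culture had a median of 16030 UMIs per cell.

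The ratio of S100a8 was 0.909 without the 5% of cells with the most UMIs, 1.18 with each cell weighing the same, 1.36 without the 2% of cells richest in granule genes and 4.27 with class weights. With 5% free RNA removed Trib3 had a ratio of 0.102 and Chil3 3.65. With class weights Ung had a ratio of 0.496. Of the other values of a gene's ratio 205 moved beyond their counting interval and 695 did not. Direction was compared only for named genes at least 1.5-fold apart in the main setting, and no other of these changed it. Depth limits genes near the floor of 0.178 CPM at 24 h and 0.151 CPM at 0 h, such as Irf8.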
